A study of Mus musculus with 8 samples.

Results

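The genes described here carry the noradrenaline signal inside the brown fat cell: the receptors Adrb1, Adrb3 and Adra1a, the G protein gene Gnas, the adenylyl cyclase Adcy3, the protein kinase A (PKA) subunits Prkaca and Prkar2b, the phosphodiesterase Pde3b and the transcription factor Creb1. Open chromatin at these 9 genes was read from ATAC-seq of mouse brown adipose tissue (BAT). ATAC-seq cuts accessible DNA with a transposase and reads where the cuts pile up. The deposited peak list gives the highest point of each peak, its summit, and a score. A summit was assigned to a gene when it lay inside the gene or at most 50 kb from a transcription start site (TSS) of its RefSeq mRNAs. This rule used annotation only. It gave 68 of the 32173 summits, and 9 of the 21000 genes with a curated RefSeq mRNA were described. No summit was assigned to more than 1 of the 9 genes.

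ATAC-seq libraries came from 2 WT mice, which were littermates with floxed Dot1l, and 2 Dot1L-BKO mice, in which Ucp1-Cre removes floxed Dot1l. Dot1l encodes the methyltransferase of lysine 79 of histone H3. The Ucp1 promoter restricts Cre to Ucp1+ cells, so that the other cell types of BAT keep Dot1l. All mice were 12 weeks old, fed chow, and kept at 4°C for 4 hr before BAT was taken, and nuclei of each mouse were processed separately. RNA-seq libraries of the same genotypes, 2 per genotype, were not analysed here. The list was made from the 4 ATAC-seq libraries together, described as WT against Dot1L-BKO, and which libraries served as the control of the peak caller is not known here. It holds no value for any library. Depth per library is therefore unknown, no replicate error can be given, and the genotypes could not be compared.

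In brown fat, noradrenaline from sympathetic nerves binds beta-adrenergic receptors, which act through the stimulatory G protein to switch on adenylyl cyclase. The cAMP formed releases the catalytic subunits of PKA from the regulatory subunits. PKA then phosphorylates lipases and perilipin to free fatty acids, and CREB family factors to induce thermogenic genes such as Ucp1, while phosphodiesterases break cAMP down.

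The DNA letters around the highest listed summits of each gene were looked at next. Some of these summits are weak, as at Adrb3 with a score of 5.07. For each gene, the window of 100 bp on each side of the highest summit that lay nearest to a TSS of that gene is given. The windows come from the plus strand of the RefSeq genome GRCm38.p6, which is mm10. Capitals mark matches, on either strand, to the 10 short motifs searched. These were the cAMP response element (CRE) TGACGTCA, its half-site TGACG, which lies inside the full element, and AP-1 TGANTCA. The others were C/EBP TTGCNNAA, EBF CCCNNGGG, ERR TCAAGGTCA, the NFI half-site TTGGCA, the nuclear receptor half-site AGGTCA, which lies inside the ERR motif, the GC box GGGCGG and ETS CCGGAA. For Creb1, whose summit lies in the 5′ UTR, the 30 bases that end with the half-site closest to the summit are given.
Adrb1 22168 bp downstream of the TSS, chr19:56744185-56744385: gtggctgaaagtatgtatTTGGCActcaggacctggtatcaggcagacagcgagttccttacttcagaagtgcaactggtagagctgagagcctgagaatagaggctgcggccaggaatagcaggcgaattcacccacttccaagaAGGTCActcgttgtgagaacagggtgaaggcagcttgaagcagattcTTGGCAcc
Adrb3 2037 bp downstream of the TSS, chr8:27227451-27227651: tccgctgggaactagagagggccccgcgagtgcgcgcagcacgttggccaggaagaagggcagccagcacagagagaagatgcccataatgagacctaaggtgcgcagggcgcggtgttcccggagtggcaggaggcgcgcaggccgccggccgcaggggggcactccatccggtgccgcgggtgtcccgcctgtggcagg
Adra1a 113263 bp downstream of the TSS, chr14:66748414-66748614: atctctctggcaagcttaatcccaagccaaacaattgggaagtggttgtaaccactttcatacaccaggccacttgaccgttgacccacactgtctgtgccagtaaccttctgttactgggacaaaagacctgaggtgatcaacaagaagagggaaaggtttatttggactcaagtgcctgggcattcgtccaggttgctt
Gnas 314 bp upstream of a TSS, chr2:174327354-174327554: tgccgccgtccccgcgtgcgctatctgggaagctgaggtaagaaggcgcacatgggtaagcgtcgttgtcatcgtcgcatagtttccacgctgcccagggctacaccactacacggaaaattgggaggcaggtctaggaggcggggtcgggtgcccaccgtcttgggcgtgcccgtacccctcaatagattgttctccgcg
Adcy3 45789 bp downstream of a TSS, chr12:4179842-4180042: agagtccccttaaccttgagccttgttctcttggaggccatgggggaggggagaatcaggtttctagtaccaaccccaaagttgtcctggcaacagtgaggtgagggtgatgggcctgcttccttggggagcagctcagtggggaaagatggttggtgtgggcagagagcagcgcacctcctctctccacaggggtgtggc
Prkaca 214 bp upstream of the TSS, chr8:83972664-83972864: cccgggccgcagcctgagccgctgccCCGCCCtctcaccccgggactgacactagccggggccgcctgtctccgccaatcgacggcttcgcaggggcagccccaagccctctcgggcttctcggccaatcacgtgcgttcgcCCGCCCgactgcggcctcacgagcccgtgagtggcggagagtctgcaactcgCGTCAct
Prkar2b 48103 bp upstream of the TSS, chr12:32109280-32109480: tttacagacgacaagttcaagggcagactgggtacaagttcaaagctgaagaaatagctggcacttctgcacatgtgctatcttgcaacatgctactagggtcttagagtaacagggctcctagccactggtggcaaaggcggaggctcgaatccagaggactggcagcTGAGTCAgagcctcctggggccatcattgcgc
Pde3b 576 bp upstream of the TSS, chr7:114414578-114414778: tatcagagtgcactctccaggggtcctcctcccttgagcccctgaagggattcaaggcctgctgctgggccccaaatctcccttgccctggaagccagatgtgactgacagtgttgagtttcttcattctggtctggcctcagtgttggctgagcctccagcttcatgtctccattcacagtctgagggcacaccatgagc
Creb1 126 bp downstream of the TSS, chr1:64532906-64532935: tgagTGACGcggcggaggtgtagttTGACG
The Adrb1 window held 2 NFI half-sites and 1 nuclear receptor half-site, the Prkaca window 2 GC boxes and 1 CRE half-site, the Prkar2b window an AP-1 motif, and the Creb1 stretch 2 CRE half-sites. The windows of Adrb3, Adra1a, Gnas, Pde3b and the highest Adcy3 summit held none of these letters.

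A second set shows the other summits of at least 20 that lay nearest to a TSS of the same gene, and the 1 window with a full CRE. All are at Adcy3 or Prkar2b.
Adcy3 25291 bp downstream of a TSS, chr12:4159344-4159544: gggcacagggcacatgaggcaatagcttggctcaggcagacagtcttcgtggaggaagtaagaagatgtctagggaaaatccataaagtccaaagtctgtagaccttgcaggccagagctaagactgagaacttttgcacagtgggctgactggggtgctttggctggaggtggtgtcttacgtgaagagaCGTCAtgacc
Adcy3 67480 bp downstream of a TSS, chr12:4201533-4201733: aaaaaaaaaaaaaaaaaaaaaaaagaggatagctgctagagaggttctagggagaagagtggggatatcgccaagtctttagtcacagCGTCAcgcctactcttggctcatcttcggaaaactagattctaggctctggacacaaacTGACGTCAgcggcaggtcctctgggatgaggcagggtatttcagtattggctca
Prkar2b 14252 bp upstream of the TSS, chr12:32075429-32075629: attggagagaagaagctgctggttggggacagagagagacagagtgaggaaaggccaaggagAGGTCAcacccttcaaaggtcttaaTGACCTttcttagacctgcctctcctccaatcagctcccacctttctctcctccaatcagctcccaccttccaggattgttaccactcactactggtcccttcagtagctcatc
Prkar2b 43319 bp upstream of the TSS, chr12:32104496-32104696: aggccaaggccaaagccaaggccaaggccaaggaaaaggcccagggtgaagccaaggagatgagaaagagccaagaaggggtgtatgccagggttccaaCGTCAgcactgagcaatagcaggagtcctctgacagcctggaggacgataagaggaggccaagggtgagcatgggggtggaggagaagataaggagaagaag
The full CRE lay at chr12:4201680-4201687, in the window of a summit in intron 10 of Adcy3 with a score of 8.12. The same window held a further half-site 10 bp from the summit. The window of the Adcy3 summit 25291 bp downstream held 1 half-site, near its edge. At Prkar2b, 1 window held 2 nuclear receptor half-sites on opposite strands, and the window of the summit 43319 bp upstream held a CRE half-site whose centre was 1 bp from the summit.

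Each score is a −log10 q-value from the peak caller MACS2, so that a higher score means a pile-up of reads less expected from the background the caller was given. That background is not known here. If the libraries of 1 genotype served as the control, every score is an enrichment over that genotype, and otherwise it is one over the local background of the reads. In the first case a site open alike in both genotypes could lack a summit. Presence and absence of summits carry the same limit. The scores were therefore compared only within the list. A score is not a level of accessibility per cell. In bulk tissue, a site open in fewer cells and a site less open in each cell cannot be told apart. The lowest score in the list was 1.31. The 68 member summits scored between 2.03 and 56.9. Their median was 5.90, beside 5.0 over the 32173 summits, and their quartiles were 3.75 and 8.93. A score of at least 10 was reached by 16 of the 68 summits (23.5%), and by 23.5% of all summits. Scores fell on few levels. The 68 summits had 38 distinct scores, and 67 of them shared their score with at least 1 other summit of the list, so that small differences in rank carry little.

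Markers of brown and other fat cells and of other cell types were looked up in the same list. Because the background of the caller is not known, they cannot settle which cell types the tissue held. A summit at most 1 kb from a TSS is called a promoter summit here. Over all genes, 45.2% had one, and 23.5% had one with a score of at least 10. All 8 brown adipocyte markers and all 6 adipocyte markers had a promoter summit. The brown adipocyte markers ranged from 6.02 for Dio2 and Cox8b to 61.5 for Cidea, with 33.7 for Ucp1, and 4 of the 8 reached 10. The adipocyte markers ranged from 6.02 for Adipoq to 84.8 for Lipe, and 5 of the 6 reached 10. Of 5 genes each, 1 endothelial marker (Cdh5, 2.59), 1 macrophage or leukocyte marker (Cd68, 2.15), 1 fat progenitor marker (Pdgfra, 4.16) and 1 liver or pancreas marker (Apoa2, 8.94) had one. The score of Apoa2 was above those of Dio2, Cox8b, Prdm16 (8.65) and Adipoq. None of the 5 skeletal muscle markers and none of the 5 neuronal markers had one.

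The 9 genes differed widely in the number of their summits. Prkaca had 14, Adrb1 13, Prkar2b 12, Adcy3 10, Gnas 9, Adra1a 5, Adrb3 3, and Pde3b and Creb1 had 1 each. Of the 68 summits, 37 lay in the body of the gene and 31 outside it. A TSS of the same gene was the nearest TSS for 52 summits, and a TSS of another gene was nearer for the other 16. Of these 16, 9 belonged to Prkaca, 4 to Adcy3, 2 to Prkar2b and 1 to Adrb3. Within 1 kb of a TSS of the gene itself lay 13 summits, with a median score of 8.65, a further 5 lay within 1 kb of the TSS of another gene only, and 50 lay farther than 1 kb from every TSS, with a median of 5.55. Over all summits the medians were 8.65 within 1 kb and 4.16 farther away.

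**Figure D1:**
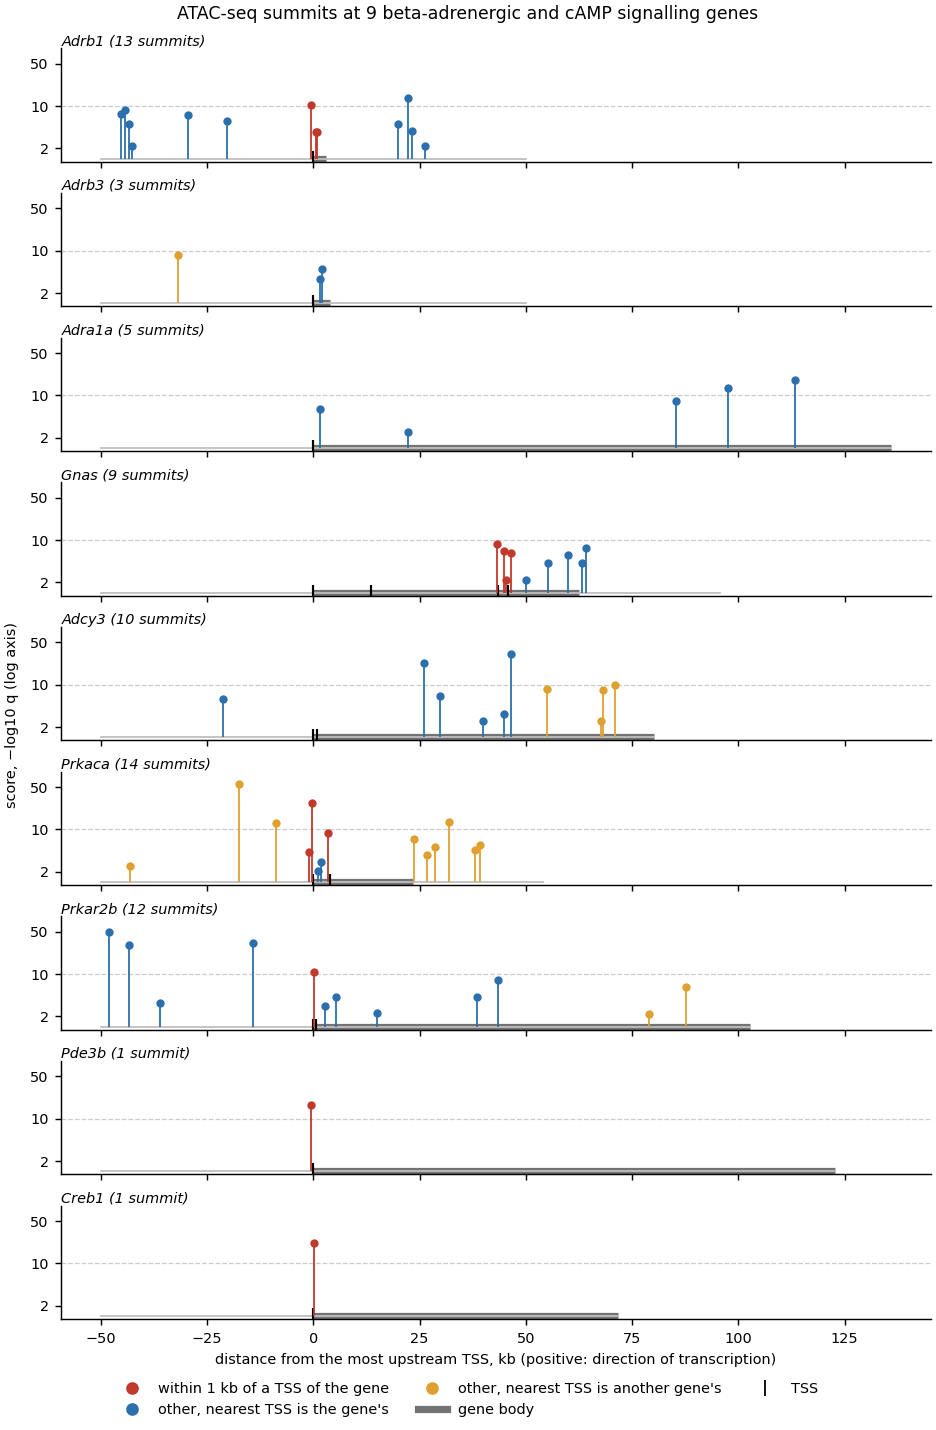
Summits of the 9 genes, by distance in kb from the most upstream TSS along the direction of transcription (horizontal axis) and by score on a log axis (vertical axis). Red points lie within 1 kb of a TSS of the gene, blue points elsewhere but nearest to it, and orange points nearest to a TSS of another gene. The thick grey bar is the gene body, the thin grey line the 50 kb limit, black ticks are TSSs, and the dashed line marks a score of 10. Adrb1 and Prkar2b have runs of blue points upstream, Pde3b and Creb1 have a single red point, and Adrb3, Adra1a and Adcy3 have no red point.

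The 3 receptors had unlike patterns. Adrb1, which encodes the beta-1 receptor (chr19:56722117-56725150, plus strand, a single exon and a single TSS), was flanked by summits on both sides. Its promoter summit lay 586 bp upstream of the TSS with a score of 10.4. Weaker summits, both with a score of 3.75, lay 552 and 963 bp downstream in the coding part of exon 1. Upstream, 4 summits lay close together between 45333 and 42577 bp from the TSS, with scores of 7.42, 8.65, 5.07 and 2.15. A single summit of 7.05 lay 29428 bp upstream and one of 5.55 lay 20309 bp upstream. Downstream of the gene, 4 summits lay between 19944 and 26190 bp from the TSS, and the highest of all 13 was among them, with a score of 13.3 at 22168 bp. The 10 summits outside the promoter were all intergenic, and Adrb1 had the nearest TSS to all 13.

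Adrb3, the beta-3 receptor gene that is typical of fat cells (chr8:27225776-27229588, minus strand), had no promoter summit. Its nearest summits lay 1479 bp downstream of the TSS (3.35) and 2037 bp downstream (5.07), both in the coding part of exon 2. GENCODE annotates the start of another protein-coding Adrb3 transcript 385 bp from the first of these, and with a window of 5 kb on each side of a TSS Adrb3 had a promoter score of 5.07. The highest of its 3 summits, with a score of 8.65, lay 31760 bp upstream, in intron 1 of Eif4ebp1 and 1021 bp from the TSS of that gene, which encodes a translation repressor. Adrb3 therefore had 2 summits that were nearest to its own TSS.

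Adra1a, the alpha-1A receptor gene, which signals through calcium rather than cAMP (chr14:66635251-66771168, plus strand), had no promoter summit either. All 5 of its summits lay inside the gene. The summit nearest to the TSS, 1635 bp downstream in intron 1, had a score of 6.02 and counted as a promoter summit once predicted transcripts were included. A summit of 2.53 lay 22342 bp downstream and one of 8.12 lay 85257 bp downstream, both in introns. The 2 highest lay near the far end of the gene. One of 13.4 lay 97521 bp downstream, in the 3′ UTR of exon 4 of 1 mRNA. The other, of 17.7, lay 113263 bp downstream in intron 2 of a longer mRNA, and ranked 3691 in the list.

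Gnas encodes the alpha subunit of the stimulatory G protein, in an imprinted locus with several first exons (chr2:174284320-174346744, plus strand). Its 11 curated mRNAs start at 4 TSSs. No summit lay within 1 kb of the first 2, the starts of the mRNAs for Nesp55 and for the extra-large alpha subunit, and the nearest summits were 43134 and 29595 bp away. The third TSS, at position 174327768, had the highest summit of the gene, 314 bp upstream with a score of 8.65. The fourth, at 174330006, is where the mRNA of the stimulatory alpha subunit itself begins. It had 3 summits within 1 kb, 782 bp upstream (6.53), 286 bp upstream (2.15) and 789 bp downstream (6.02). The summits 782 and 286 bp upstream lay in a 5′ UTR exon of the mRNA that starts at the third TSS. These 4 summits spanned 3341 bp. The other 5 lay 4364 to 18430 bp downstream of the fourth TSS, 3 in introns and 2 past the end of the gene, with scores from 2.15 to 7.42. No summit of Gnas reached a score of 10.

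Adcy3, an adenylyl cyclase of brown fat (chr12:4133397-4213524, plus strand), had 10 summits and none within 1 kb of either TSS. The nearest lay 21360 bp upstream, with a score of 5.77, and no summit lay within 5 kb of a TSS. The strongest summits were inside the gene. The highest, which scored 32.5 and ranked 1387, lay 45789 bp downstream of the second TSS in intron 2. The next scored 22.5, ranked 2618 and lay 25291 bp downstream in intron 1. GENCODE annotates the start of a noncoding Adcy3 transcript 156 bp from that summit. A shorter Adcy3 mRNA that begins inside the gene is known from brown fat of cold-exposed mice, and whether these summits bear on it was not tested. The other 7 summits in the gene had scores from 2.51 to 9.78. The last 4 of them, in introns 2 to 11, lay nearer to the TSS of Cenpo, a centromere protein gene at the other end, though 29547 bp or more from it.

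Prkaca, which encodes the main catalytic subunit of PKA (chr8:83972978-83996444, plus strand), had the highest promoter score of the 9 genes. The summit 214 bp upstream of its first TSS scored 27.7 and ranked 1823, and a weaker one of 4.16 lay 987 bp upstream. A second TSS, inside the gene at 83976883, had a summit of 8.65 at 404 bp upstream. Between them, 2 summits in intron 1 had scores of 2.03 and 2.92. The other 9 summits within the limit were nearer to other genes. The highest of the whole set of 68, which scored 56.9 and ranked 386, was 1 of these. It lay 17564 bp upstream of Prkaca, but 280 bp from the TSS of Asf1b, a histone chaperone gene. Others lay near the TSSs of Samd1 (929 bp away, score 7.05), 1700067K01Rik (54 bp, 5.07) and Misp3 (662 bp, 4.61, and 535 bp, 5.55). Given only to the nearest TSS, the count for Prkaca was 5 rather than 14.

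Prkar2b, the regulatory subunit RII beta that is abundant in fat and brain (chr12:31958471-32061277, minus strand), had its strongest summits upstream of the gene. The promoter summit, 236 bp downstream of the first TSS in the coding part of exon 1, had a score of 10.9. Of the 4 upstream summits, which were all intergenic and nearest to Prkar2b, 3 scored higher. They had scores of 32.5 at 14252 bp, 30.1 at 43319 bp and 50.04 at 48103 bp upstream, and the fourth, at 36149 bp, had 3.32. The summit at 48103 bp ranked 556 and was the highest of the 52 summits that were nearest to a TSS of their own gene. It lay inside the 50 kb limit by less than 2 kb. The 7 intronic summits were weaker, between 2.15 and 8.12, and 2 of them near the end of the gene lay nearer to the TSS of Hbp1.

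Pde3b, which breaks down cAMP in fat cells and is switched on by insulin (chr7:114415254-114537937, plus strand), had a single summit although its body spans 123 kb. It lay 576 bp upstream of the TSS with a score of 16.7. GENCODE annotates the start of a noncoding transcript, 4933406I18Rik, 343 bp from this summit, nearer than the Pde3b TSS. Creb1, which encodes CREB (chr1:64532804-64604548, plus strand), also had a single summit. It lay 126 bp downstream of the TSS, in the 5′ UTR of exon 1, and its score of 21.6 ranked 2731. No intronic summit was listed for either gene.

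Which summits were counted turns on the 50 kb limit in a few places. Just outside it, a summit of 20.2 lay 669 bp beyond the limit upstream of Adcy3 and nearest to Dnajc27, and one of 10.9 lay 905 bp beyond the limit upstream of Pde3b, with Pde3b as the nearest TSS. Upstream of Adrb1, a summit of 2.69 lay 2922 bp beyond the limit. Past the end of Prkar2b, a summit of 64.4 near Hbp1 lay 7903 bp beyond it. For the other genes the nearest excluded summit was at least 5156 bp beyond the limit.

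The members were then set beside all genes. At least 1 summit within the same limits was found for 9 of 9 member genes, and for 72.5% of all genes. The median was 9 summits per member gene, and 2 over all genes. Since the span counted grows with the length of a gene, counts were also given per 100 kb. The median was 6.18 for the members and 1.66 for all genes. These counts include summits that were nearest to a TSS of another gene, which were 9 of 14 for Prkaca. Prkaca (13.5 per 100 kb) was above 93.0% of all genes and Adrb1 (13.0) above 92.2%. Prkar2b (7.85), Adcy3 (7.68) and Gnas (6.18) were above 84.3%, 84.2% and 81.4%. Adrb3 (3.0) and Adra1a (2.69) were above 63.4% and 61.6%. Creb1 (0.821) and Pde3b (0.579) were below the median of all genes, above 32.8% and 30.3%. Of the 9 genes, 7 thus lay above the median of all genes and 2 below it.

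A promoter summit was found for 6 of the 9 members (Adrb1, Gnas, Prkaca, Prkar2b, Pde3b and Creb1), beside 45.2% of all genes. With a score of at least 10 the members numbered 5 of 9, beside 23.5% of all genes, and the gene that dropped out was Gnas. The median promoter score of these 6 was 13.8, and that of the 9485 genes with a promoter summit was 10.7. Among those genes, Prkaca was above 83.4%, Creb1 above 75.7%, Pde3b above 66.5%, Prkar2b above 50.2%, Adrb1 above 48.2% and Gnas above 40.0%. Prkaca and Creb1 thus lay above the upper quartile of 20.9, and the other 4 below it. These are descriptions of 1 list without replicates, and no test was made.

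**Figure D2:**
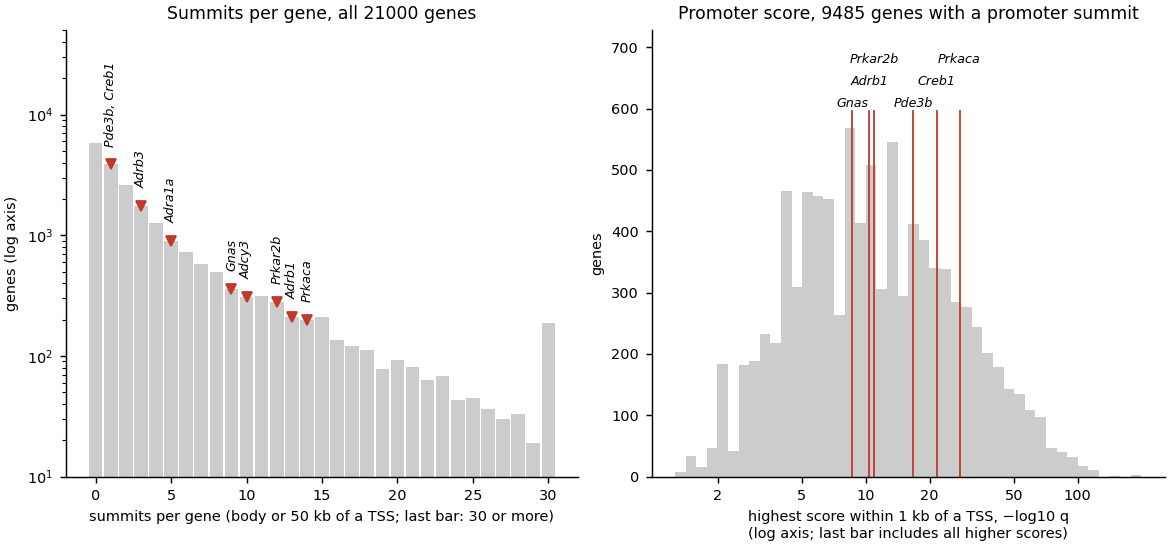
The 9 genes among all genes. Left, number of genes on a log axis by summits per gene, with red triangles at the counts of the named genes, from 1 for Pde3b and Creb1 to 14 for Prkaca. Right, number of genes by highest score within 1 kb of a TSS on a log axis, with red lines at the 6 members that have a promoter summit, from 8.65 for Gnas to 27.7 for Prkaca.

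The rest of the pathway was described from lists by role. The lists held 112 genes, of which 111 matched the annotation (Akap2 did not), and the members are among them. A promoter summit was found for 69 of the 111 (62.2%), and for 63 of the 102 that are not members (61.8%), beside the 45.2% of all genes. A score of at least 10 was reached by 38 of the 111 (34.2%), beside 23.5% of all genes. The median promoter score was 11.1. For 2 of the 69, Gng5 and Creb3, another gene had a TSS nearer to the summit.

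Among the 8 adrenergic receptor genes listed, 3 had a promoter summit (37.5%, beside 45.2% of all genes). Adrb1 had the highest with 10.4, above Adra2a with 5.93 and Adra1d with 2.92, and Adra1a, Adra1b, Adra2b, Adra2c and Adrb3 had none. Adrb1 also had the most summits of the 8, with 13, beside 5 for Adra1a and 3 for Adrb3. Among 17 G protein subunit genes, 13 had one (76.5%, beside 45.2%), led by Gnai2, the inhibitory alpha subunit, with 62.5. The stimulatory alpha subunit gene Gnas, with 8.65, was lower, and Gnal, Gnaq, Gnb4 and Gng2 had none. Of 10 adenylyl cyclase genes 3 had a promoter summit (30%, beside 45.2%), Adcy10 with 9.21, Adcy9 with 6.53 and Adcy6 with 4.61. None reached 10, beside 23.5% of all genes. Adcy3 was 1 of the 7 without, and had 10 summits within its limits, of which 6 were nearest to its own TSSs. Adcy4 and Adcy6 had 6 each within theirs.

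All 6 genes for PKA subunits had a promoter summit with a score of at least 10, beside 23.5% of all genes. After Prkaca (27.7) came Prkacb with 22.4, Prkar1b with 19.4, Prkar1a with 12.8, Prkar2a with 11.1 and Prkar2b with 10.9. The genes for the PKA inhibitor peptides, Pkia, Pkib and Pkig, had none. Prkar2b was the lowest of the 6 at the promoter. It had 12 summits within its limits, of which 10 were nearest to its own TSSs, and Prkaca had 14, of which 5 were. Of 13 A-kinase anchoring protein genes, which tether PKA, 6 had a promoter summit (46.2%, near the 45.2% of all genes). Akap1, the mitochondrial anchor, led with 32.5.

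Of 18 phosphodiesterase genes 11 had a promoter summit (61.1%, beside 45.2% of all genes). The cAMP-specific Pde8a led with 42.2, and Pde3b was the third with 16.7 after Pde4a with 20.9. Of 15 genes for the CREB family and its coactivators 10 had one (66.7%, beside 45.2%), led by Creb3l2 with 49.1. Creb1 had 21.6, and Creb3l1, Creb3l3, Creb3l4, Crtc3 and Crebbp had none. All 7 genes for receptor kinases and arrestins, which silence active receptors, had a promoter summit, beside 45.2% of all genes. Their scores ranged from 2.92 for Grk2 to 85.1 for Grk4. Of 8 genes for other cAMP effectors and p38 kinases 4 had one (50%, near the 45.2% of all genes). Mapk14, the p38 alpha kinase, led with 30.9, and Rapgef4, Map2k6, Mapk11 and Mapk13 had none.

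The 6 genes for lipolysis targets of PKA and their partners all had a promoter summit, beside 45.2% of all genes. Their scores ranged from 5.55 for Mgll to 84.8 for Lipe. Their numbers of summits ranged from 3 for Abhd5 to 37 for Pnpla2. Lipe, hormone-sensitive lipase, had 18 summits. Pnpla2, the first lipase of triglyceride breakdown, had 47.3 at the promoter, and Plin1, the perilipin that PKA phosphorylates, had 23.1 and 22 summits. Abhd5, the coactivator of Pnpla2, had 19.4 at the promoter. The median was 20 summits per gene in this list, beside 9 for the members and 2 for all genes. Per 100 kb the medians were 19.5, 6.18 and 1.66. Such counts take in any summits nearest to a TSS of another gene, which were not separated for this list. Lipe and Plin1 also stand among the adipocyte markers.

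**Figure D3:**
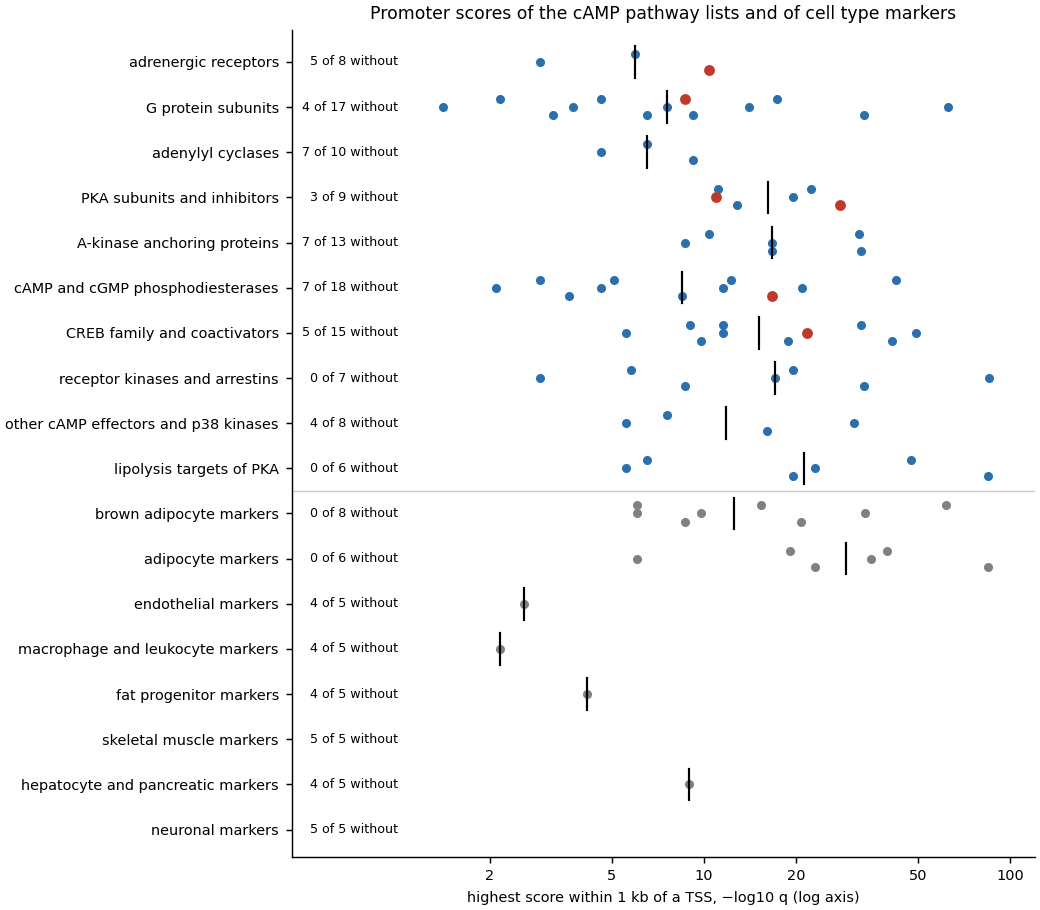
Highest score within 1 kb of a TSS on a log axis (horizontal) for each gene of 10 pathway lists (blue, members in red) and of 8 cell type marker lists (grey), with the median of each list as a black bar. The text at the left of each row gives how many genes have no promoter summit. All genes of the lists for receptor kinases and arrestins, lipolysis targets, brown adipocytes and adipocytes have one, and 7 of 10 adenylyl cyclases have none. Among all genes, 45.2% have one.

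Motif letters were counted in windows of 100 bp on each side of each summit, on both strands. A CRE half-site was found at 15 of the 68 member summits (22.1%), and at 14.8% of all summits. Since half-sites are more frequent near a TSS, both classes were given. Within 1 kb of a TSS 5 of 18 member summits held one (27.8%), beside 23.1% of all summits there, and farther away 10 of 50 did (20%), beside 10.9%. At the promoters of the members themselves 4 of 13 held one (30.8%). With each gene left out in turn, the share of member summits ranged from 23.5% to 30% within 1 kb and from 17.5% to 22.2% farther away. With 50 bp on each side of a summit the shares were 11.8% and 8.20%, and with 250 bp they were 35.3% and 28.3%. The 15 summits were spread over 8 of the 9 genes, with 3 each at Adrb1, Adcy3 and Prkaca, 2 at Prkar2b, 1 each at Adrb3, Adra1a, Gnas and Creb1, and none at Pde3b. Creb1, the gene of the factor that binds the element, had 3 half-sites in the window of its only summit. A full CRE was found at 1 member summit, in Adcy3 as given above, and at 330 of all summits (1.03%).

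The EBF motif was found at 15 member summits (22.1%, beside 15.7%), of which 6 were at Prkaca. The nuclear receptor half-site was found at 14 (20.6%, beside 15.2%), of which 7 were at Adrb1. The NFI half-site was found at 9 (13.2%, beside 10.9%), and without Prkar2b its share was 10.7%. For both half-sites the order differed by class. Within 1 kb of a TSS the members were lower, at 5.56% beside 9.96% for the nuclear receptor half-site and 0% (0 of 18) beside 7.39% for the NFI half-site. Farther away they were at 26% beside 17.7% and at 18% beside 12.6%. All 7 Adrb1 summits with the nuclear receptor half-site were in this farther class, and without Adrb1 the share there was 6 of 40 (15%), below that of all summits, and 12.7% in both classes together. For the EBF motif the shares were 33.3% beside 14.7% within 1 kb of a TSS and 18% beside 16.1% farther away. Of the 6 summits with it in the nearer class, 4 lay at the TSSs of other genes around Prkaca. At the promoters of the members themselves 2 of 13 held it (15.4%, beside 14.7%). Farther away the share was 15% without Adrb1 and 15.9% without Prkaca, both below that of all summits. Of 4 other motifs the members had lower shares than the whole list with both classes together. These were the GC box at 9 (13.2%, beside 20.6%), C/EBP at 4 (5.88%, beside 10.9%), AP-1 at 3 (4.41%, beside 6.40%) and ETS at 3 (4.41%, beside 9.57%). Within 1 kb of a TSS, C/EBP was at 5.56% in both. The GC box was at 38.9% there, beside 44.98%, but at 46.7% without Adrb1. ETS was at 4% farther away, beside 4.70%, but at 5.13% without Prkar2b. Without Prkaca the shares in both classes together were 7.41% for the GC box, 1.85% for C/EBP and 1.85% for ETS. The ERR motif was found at 0 of the 68 and at 0.454% of all summits. Numbers of member summits were small, summits of 1 gene share their neighbourhood, and a match of letters does not show that a factor was bound.

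**Figure D4:**
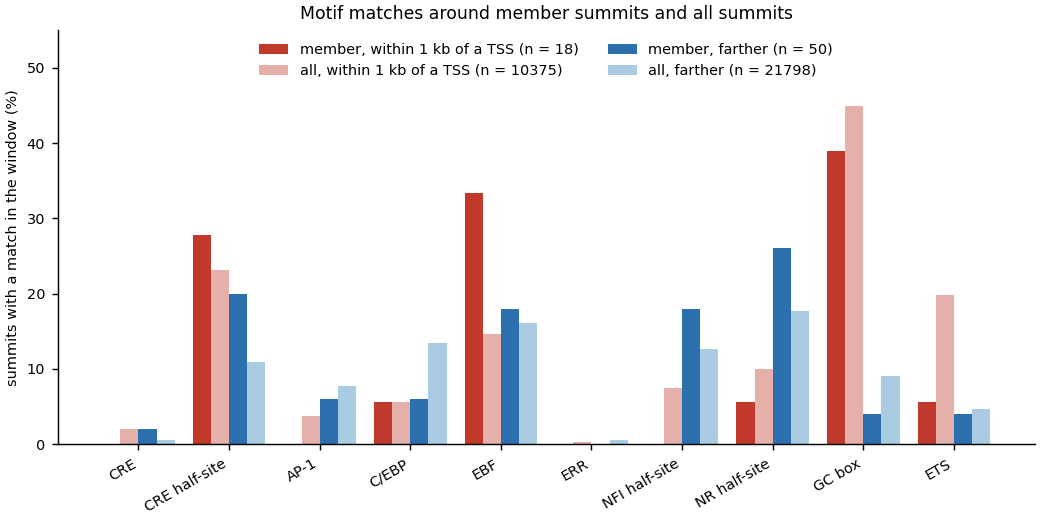
Share of summits with a motif match within 100 bp, in percent, for member summits (dark) and all summits (light), within 1 kb of any TSS (red) and farther away (blue). The bars for CRE half-sites are higher for members in both classes, 27.8% beside 23.1% and 20% beside 10.9%, with 18 and 50 member summits behind them.

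The base composition of the windows followed their place. The median GC content was 54.2% for member summits and 56.2% for all summits. It was 62.9% for the 18 member summits within 1 kb of a TSS, beside 62.2% for all summits there, and 51.7% for the 50 farther away, beside 54.2%. The Prkaca promoter summit had the highest value of the 68 (72.1%, with 24 CpG dinucleotides), and the Pde3b promoter summit had 56.2% with 0 CpG dinucleotides. Of the 68 summits, 12 lay in exons (17.6%), 31 in introns (45.6%) and 25 outside genes (36.8%). Over all summits these shares were 16.6%, 40.6% and 42.8%.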

How the data were processed

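ATAC-seq was made from BAT of 2 WT and 2 Dot1L-BKO mice. According to the study's methods, the authors mapped read pairs to mm10 in Partek Flow (BWA) and then ran MACS2 2.1.1 in its ATAC mode, keeping peaks with q-values under 0.05 and a minimum fold enrichment. The version comes from the submitters' processing notes. The authors' deposited list gives a position and the −log10 of the q-value from MACS2 for each of 32173 summits, made from the 4 libraries together. Shifting of reads for the transposase and the handling of multi-mapped and mitochondrial reads are not given in the sources used here, and could move or add summits. No values per library were used, so that depth, replicate error and a test between genotypes could not be had.

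Summits were placed relative to curated mRNAs (21000 genes, 25999 distinct TSSs) of RefSeq GRCm38.p6 on chromosomes 1 to 19, X and Y. A promoter summit lay within 1 kb of a TSS. Other transcript starts came from GENCODE vM21. Motif letters were matched exactly within 100 bp of each summit. The members and lists were chosen with earlier results of these data known, and 1 gene is not reported here. Named were all 9 members with their promoter summits and highest summits, in each pathway list the gene with the highest promoter score and, where 5 or fewer lacked one, those genes, and genes whose TSS was nearest to the highest summit of a member. Any other gene named was chosen after its values were seen. Counting was tested on simulated summits, where 200 of 200 genes had the known count, and 1000 of 1000 planted motifs were found. Python 3.11.15, numpy 2.4.6, pandas 2.3.3, pysam 0.24.0 and matplotlib 3.10.9 were used.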

Additional observations from a re-analysis of the deposited data

How the results depend on the processing

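Alternatives changed the score minimum, merged summits within 500 bp, included predicted transcripts, or changed the territory of a gene, the promoter window or the motif window. Of 71 recomputed values about the members and the pathway, 53 stayed within 1.5 times the value given (for the share with a CRE half-site, within its 95% Wilson interval, which covers counting error only). The number of members with a promoter summit stayed between 4 and 8 of the 9. It was 4 with 500 bp on each side, without Adrb1 and Pde3b, beside 41.4% of all genes. With 5 kb on each side it was 8, all but Adcy3, beside 50.03% of all genes. From 1 kb upstream to 100 bp downstream it was 5, without Creb1, beside 35.2% of all genes. At 500 bp the members, with 4 of 9, were thus near the share of all genes, and in the other windows above it. The median promoter score of the members, 13.8, stayed between 10.7 and 16.7 in all 8 of its alternatives. Numbers of summits moved more with the limits. The 68 summits became 42 at a score of at least 5, 16 at 10, 37 in gene bodies only and 42 within 10 kb. The median of 9 summits per member became 5 and 2 at these scores, 3 in bodies, 5 within 10 kb and 5 when each summit was given only to its nearest TSS. In the same 5 settings the median over all genes became 1, 0, 0, 1 and 1. Per 100 kb, the members' median of 6.18 became 3.43 and 1.08 at these scores, 11.2 in bodies, 9.67 within 10 kb and 4.07 within 100 kb. The median score of 5.90 stayed within 1.5 times in 8 of 9 alternatives and became 19.7 at a score of at least 10, since weaker summits were dropped, and the 69 pathway genes with a promoter summit became 38 there, the exception among 8 alternatives. The share with a CRE half-site stayed within its interval in 9 of 11 alternatives and became 11.8% at 50 bp and 35.3% at 250 bp, since the window was narrower or wider. With each gene left out in turn, chosen after seeing the data, it ranged from 20.7% to 23.7%. No paired analysis was possible because values per library were not at hand, and no replicate could be left out either. Depth, and with it what was too weak to be called, is unknown: a gene without a summit is not shown to be closed. If 1 genotype served as the control of the peak caller, a site open alike in both could also lack a summit.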
